A study of Oryza sativa with 2 samples.

Results

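Genes for the making, transport and breakdown of sucrose and starch, for hexose and trehalose phosphates and for pyruvate phosphate dikinase were followed in seedlings of rice, Oryza sativa, that had received jasmonic acid. The members were found by gene name: the RefSeq symbol or a synonym had to begin with one of the field's short names, such as SUS for sucrose synthase, SPS for sucrose phosphate synthase, SUT for sucrose transporter or AMY for amylase. The rule found 47 genes of 15798 with a feature of their own, on 57 of 17839 features that carry 1 gene. Of the 47, 37 had 1 feature and 10 had 2. The name stems for vacuolar invertases (VIN), ADP-glucose pyrophosphorylase (AGPL, AGPS), branching enzymes (BEI, BEII) and trehalose phosphate synthases (TPS) found no member, so those enzymes are not analysed here. Among the 47 members, 5 came in by name although the name belongs, or may belong, to another protein. They are included in counts over the 47. SSI2 is the name of a stearoyl desaturase, ISAP1 of a stress-associated zinc finger protein and TPPII of a tripeptidyl peptidase. ISAP1 was the only member found by the isoamylase stem (ISA), so isoamylases are not analysed here either. OsSPS1 and OsSPS2 are names that rice solanesyl diphosphate synthases also carry, and the files do not settle which enzyme is meant.

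Each array carried RNA of control seedlings in one dye and RNA of jasmonic acid-treated seedlings in the other. Both groups were grown on MS medium to an age of 7 days, and the treated group received 5 µM jasmonic acid. Array 1 had the control in Cy3 and the treated RNA in Cy5, and array 2 had the dyes exchanged. Both arrays carry 1 replicate number, so they are 1 replicate measured on 2 arrays, no p-value was computed, and an error given below is technical. The sample titles name shoots and the design text whole seedlings, and the labels give 7 days once as the age and once as the length of exposure. No cultivar is named.

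Sucrose is the form in which a leaf exports carbon. Sucrose phosphate synthase makes it, SUT transporters load it, and sucrose synthases and invertases split it where it is used, after which hexokinases phosphorylate the hexoses. Starch synthases and amylases build and break down the storage polymer, and trehalose phosphate is a signal of sugar status that trehalose phosphate phosphatases (TPP) remove. Pyruvate phosphate dikinase (PPDK) makes phosphoenolpyruvate from pyruvate and is best known from C4 photosynthesis; rice is a C3 plant and has PPDK outside that cycle. Jasmonate is a hormone of wounding and attack, known in plants for shifting carbon from growth to defence.

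All values are deposited log ratios, given here on the log2 scale. Whether the ratio is 1 dye over the other or treated over control is not stated. The values are ratios of whole numbers, and the brightness of a spot was taken as the log2 geometric mean of the terms of the reduced ratio, averaged over the arrays, which is a lower bound on its signal. Over the genes in the brightest of 4 groups, the ratios on the arrays correlated at −0.67 (Pearson's r, n = 3950 genes, across genes that share both arrays), as 1 dye over the other would give; in the dimmest group r was 0.50 (n = 3950). Over the 24 members at or above the median brightness r was −0.56, and over the 23 below it −0.08. No direction is therefore assigned. Genes at 1/2 or less on array 1 together with 2-fold or more on array 2 are said to lie on the array 2 side, and those with both conditions exchanged on the array 1 side. The swap mean is the mean of the array 1 value and the array 2 value with its sign turned. If Cy5 is the numerator on both arrays, a negative swap mean is a lower level in treated seedlings; if Cy3 is, it is a higher one; if the columns are treated over control, it is a dye effect and not a response. Gene names rest on a rearranged spot grid that was inferred from the values and that no source states.

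One member, PPDK2, differed by at least 2-fold in opposite senses on the exchanged arrays, and the invertase gene CIN2 came close. PPDK2 was the 1 member of 47 on the array 2 side, where 0.165% of all genes lay. No member was on the array 1 side, where 0.5% of all genes lay. By the mean over the arrays alone, without the demand on each array, 2 members (PPDK2 and CIN2) were at least 2-fold towards the array 2 side, against 0.279% of all genes. The same 2 members passed at 1.5-fold on each array, against 0.519% of all genes, and no member did so on the array 1 side, against 1.42%.

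Most of the other members had small swap means. Of the 47, 34 had a swap mean below 0.25 in size (72.3%, against 78.3% of all genes), and the median swap mean was −0.01 beside 0.01 for all genes. Of the 47 members, 22 lay above the median of all genes and 25 below. Ratios ran below 1 on array 1 and above 1 on array 2 in 10 members, against 12.6% of all genes, and the opposite way in 4, against 14.7%. In 32 members both ratios were below 1, against 66.7% of all genes, and in 1, TPP2, both were above, against 4.1%. Such double lows are common on these arrays, whose log2 ratios have medians of −0.30 and −0.32 over all 22575 features.

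**Figure D1:**
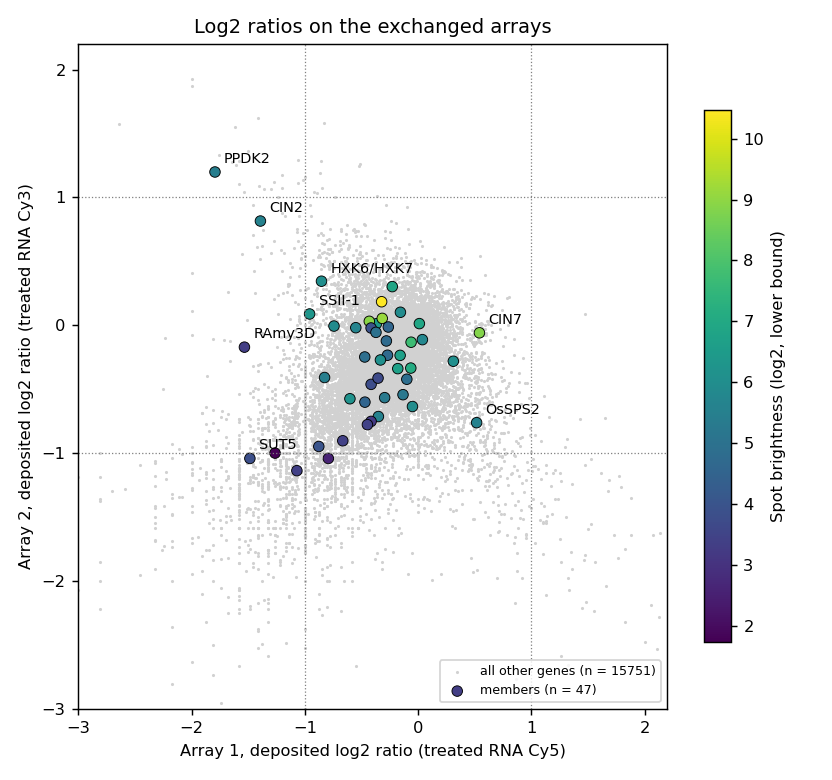
Deposited log2 ratio on array 1 (x axis) against array 2 (y axis) for the 47 members (points coloured by spot brightness, log2) and all other genes (grey); dotted lines mark 2-fold and 25 genes lie outside the drawn range. PPDK2 stands beyond both lines at the upper left and CIN2 just below the upper line, while SUT5 and other dim members lie at the lower left.

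PPDK was represented by both rice genes, and they differed. For PPDK2 (LOC4333181) the log2 ratios were −1.79 and 1.20 on arrays 1 and 2. The deposited values correspond to whole-number ratios of 15 to 52 and 101 to 44, that is 0.288 and 2.30. The swap mean was −1.50, a size of 2.82-fold, and the 9th lowest of the 15798 genes. After each array was centred on its own median, the log2 ratios were −1.49 and 1.52, and the swap mean was −1.50 ± 0.015 (SD of the array 1 value and the array 2 value with its sign turned, n = 2 arrays). An SD of this kind is large where both ratios lie far to the same side of the median of their array. The median SD of this kind over all genes was 0.27, so an SD from 2 values as small as this one is not a measure of precision. The other gene, PPDK1 (LOC4338750, also PPDKB), which encodes the form studied in rice endosperm, had −0.83 and −0.41, a swap mean of −0.21. Its ratios were below 1 on both arrays, so only PPDK2 of the pair changed sign between the arrays. The spots were of like brightness, 5.43 for PPDK2 and 5.47 for PPDK1, at the median of all genes of 5.47.

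Sucrose cleavage gave the second large value, in a cell wall invertase. Cell wall invertases split sucrose outside the cell, and CIN2 (LOC4335790), also named GIF1, is known for its part in rice grain filling. CIN2 had −1.39 on array 1 and 0.82 on array 2, from ratios of 8 to 21 and 234 to 133. Its swap mean of −1.10 corresponds to a size of 2.15-fold and was the 28th lowest of all genes. The ratio on array 2 was 1.76, short of 2-fold; after centring, the log2 ratios of −1.09 and 1.13 passed on both arrays, with a swap mean of −1.11 ± 0.028 (SD over the 2 arrays). The other invertases did not share this pattern. CIN4 (LOC4324001) had −0.42 and −0.02, from ratios of 3 to 4 and 67 to 68. Its brightness of 3.93 is a lower bound that the short ratio on array 1 pulls down. CIN7 (LOC4346527, also INV1) had 0.54 and −0.06 on a bright spot, a swap mean of 0.30, the largest in size on the opposite side among the sucrose-cleaving genes. CINV1 (LOC4329626), a cytosolic invertase, had −0.06 and −0.33.

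The 6 sucrose synthases, which split sucrose with UDP inside the cell, had small swap means. SUS4 (LOC4332788) had −0.55 and −0.02, with a swap mean of −0.27. SUS2 (LOC4340386) had −0.43 and 0.03 and SUS1 (LOC4333062) had −0.32 and 0.05, with swap means of −0.23 and −0.19. These last were on the brightest spots of the family, with brightness of 8.89 and 9.12. SUS5 had a swap mean of −0.16 and SUS6 one of 0.04. The spot of SUS3 (LOC4343910) was dim, with −0.42 on array 1 and −0.75 on array 2, which gives 0.17. In SUS1, SUS2, SUS4 and SUS5 the array 1 ratio was the lower one, and in SUS3 and SUS6 the array 2 ratio was. Over all 10 sucrose-cleaving genes the median swap mean was −0.17, and none was on either side by the 2-fold rule.

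Genes named for sucrose phosphate synthase, the enzyme of sucrose synthesis, did not reach 2-fold on either array. SPS3F (LOC4341642, also SPS6) had 0.31 and −0.28, a swap mean of 0.30. SPS4F (LOC4345220, also SPS8) had −0.16 and −0.24, and SPS2F (LOC4328527) had −0.35 and −0.41 as the mean of 2 spots, both with swap means under 0.05. OsSPS2 (LOC9267741), one of the names shared with solanesyl diphosphate synthases, had 0.52 and −0.76. Its swap mean of 0.64 was the highest of all 47 members, at percentile 97.7 of all genes. OsSPS1 (LOC4341844), the other such name, had −0.27 and −0.23.

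The 4 sucrose transporters, which carry sucrose across membranes into the phloem and into sinks, had ratios below 1 on both arrays. So did 66.7% of all genes. After each array was centred on its median, SUT5 alone of the transporters was below the median on both, at −1.19 and −0.72. SUT1 (LOC4331775), the best known phloem loader of rice, had −0.18 and −0.34, and SUT4 (LOC4331221) had −0.30 and −0.57. SUT2 (LOC9266530) had −0.26 and −0.01. SUT5 (LOC4329756) was the lowest, with −1.49 and −1.04 from ratios of 5 to 14 and 17 to 35, and passed 2-fold below 1 on both arrays. It was 1 of 3 such members, where the share of all genes below 1 by 2-fold or more on each array was 3.85%, and the share above 1 by as much was 0%. All 3 lay in the dimmest of 4 brightness groups, which held 594 of the 609 genes that were lower on both. Swap means of the transporters ran from −0.22 to 0.14.

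**Figure D2:**
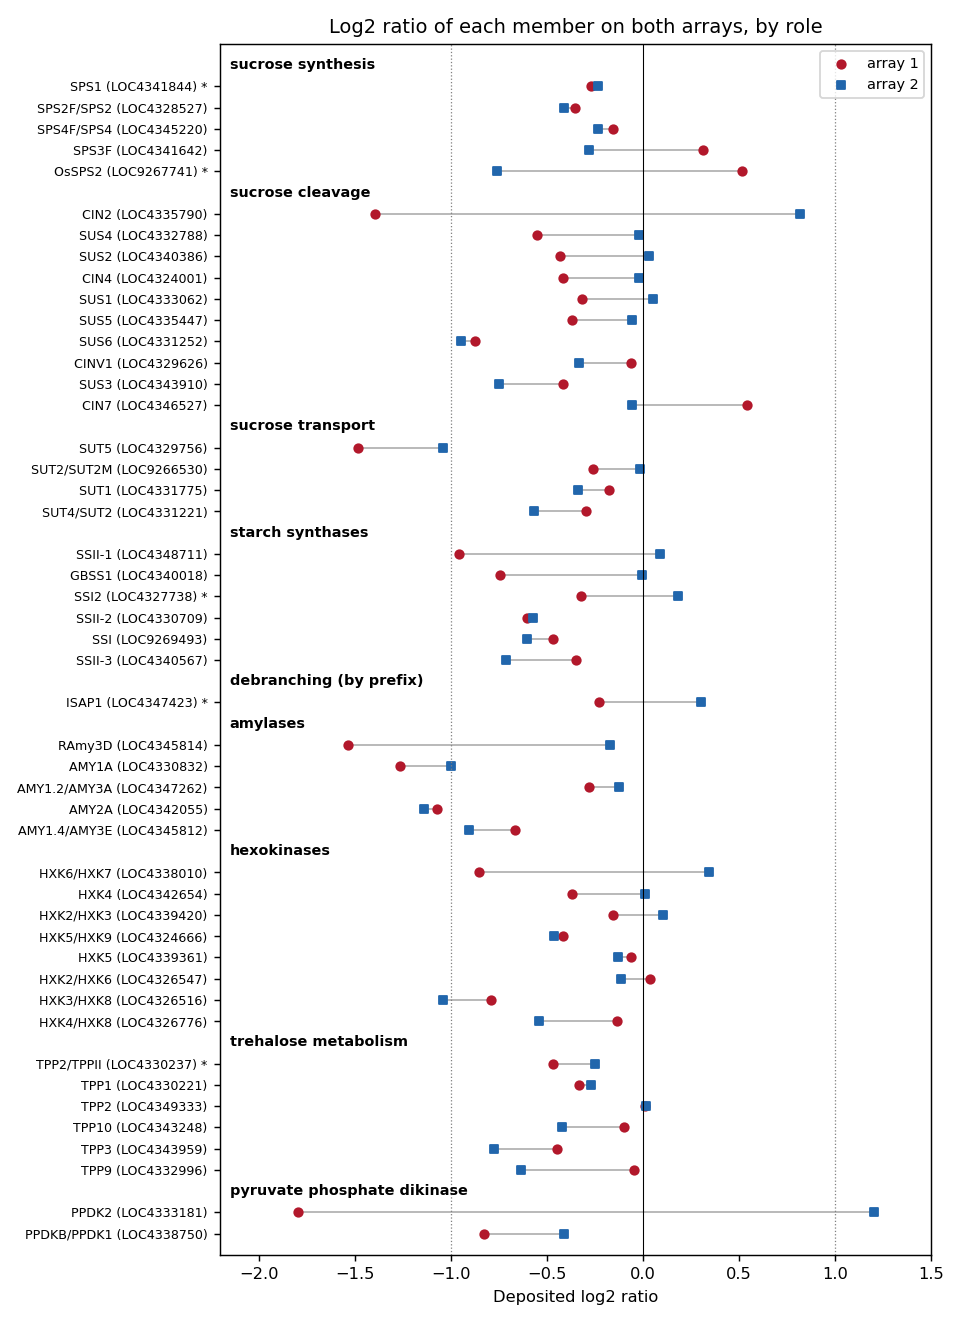
Deposited log2 ratio of each of the 47 members on array 1 (red circles) and array 2 (blue squares), by role and ordered by swap mean within a role; dotted lines mark 2-fold and asterisks mark the 5 names of other or unsettled proteins. PPDK2 spans from −1.79 to 1.20 and CIN2 from −1.39 to 0.82, while most bars are short and lie left of 0.

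Starch synthases extend the glucan chains of starch, GBSS for amylose and the soluble enzymes for amylopectin. SSII-1 (LOC4348711) had −0.96 and 0.09, a swap mean of −0.52. Granule-bound GBSS1 (LOC4340018), the waxy gene, had −0.74 and −0.01 as the mean of 2 spots, a swap mean of −0.37. The dimmer of them gave −1.50 on array 1 and −0.27 on array 2, the brighter 0.02 and 0.26, and their swap means were −0.61 and −0.12. SSII-2 (LOC4330709) had −0.60 and −0.57, SSI (LOC9269493) had −0.47 and −0.60, and SSII-3 (LOC4340567), the ALK gene of grain gelatinisation, had −0.35 and −0.71. The values of SSII-2 and SSII-3 are also means of 2 spots that differed. For SSII-2 the brighter spot had −0.40 and −0.02 and the dimmer −0.81 and −1.13. For SSII-3 the brighter had −0.07 and −0.15 and the dimmer −0.63 and −1.28. The value of GBSS1 thus rests mainly on its dimmer spot, and SSII-1 has 1 spot. None was past 2-fold on both arrays, and the median swap mean of these 5 genes was −0.01.

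The 5 amylases, which hydrolyse starch and are best known from the germinating grain, were the dimmest role, with 4 of 5 in the dimmest of 4 brightness groups. AMY1A (LOC4330832) had −1.26 and −1, from ratios of 5 to 12 and 1 to 2. AMY2A (LOC4342055) had −1.07 and −1.14, from 10 to 21 and 5 to 11. These terms are a lower bound, and only if the signals were as small would the steps between possible ratios be coarse. Both genes counted among the 3 members that were 2-fold or more below 1 on each array. RAmy3A (LOC4347262) had −0.28 and −0.12, and RAmy3E (LOC4345812) had −0.67 and −0.90 as the mean of 2 spots. RAmy3D (LOC4345814), known in rice as an amylase induced by sugar starvation, had −1.53 and −0.17 as the mean of 2 spots that disagreed. Its brighter spot had −1.65 and 0.98, from ratios of 7 to 22 and 69 to 35, a swap mean of −1.32. Its dimmer spot had −1.42 and −1.32, from 3 to 8 and 2 to 5, a swap mean of −0.05. The value of RAmy3D thus depends on which spot is read. As deposited, neither reading passed 2-fold on both arrays in opposite senses, the brighter spot missing it with a ratio of 1.97 on array 2. Centring on the array medians of −0.30 and −0.32, the step that took CIN2 past 2-fold, would take the brighter spot past it as well. The mean of the spots stayed short of it after centring, at −1.23 and 0.15.

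Hexokinases phosphorylate hexoses and some of them sense sugar. Their 8 genes carry overlapping names in RefSeq, so loci are given with both. LOC4338010 (HXK6, HXK7) had −0.85 and 0.34, from ratios of 31 to 56 and 113 to 89. Its swap mean of −0.60 corresponds to 1.51-fold, and after centring it was −0.61 ± 0.076 (SD over the 2 arrays). No other hexokinase had a swap mean above 0.21 in size. LOC4326776 (HXK4, HXK8) had −0.13 and −0.54, LOC4342654 (HXK4) had −0.37 and 0.01, and LOC4339361 (HXK5), on the brightest spot of the family, had −0.06 and −0.13. LOC4326516 (HXK3, HXK8), the dimmest, had −0.79 and −1.04 as the mean of 2 spots.

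Trehalose phosphate phosphatases remove the phosphate from trehalose phosphate. TPP9 (LOC4332996) had −0.05 and −0.64, a swap mean of 0.29. TPP10 had a swap mean of 0.16, and TPP3 (LOC4343959), on a dim spot, had −0.45 and −0.78, one of 0.17. TPP1 (LOC4330221) had −0.33 and −0.27, and TPP2 (LOC4349333) had 0.01 on each array, on the brightest spot of the family, the closest of all members to a swap mean of 0. The median of these 5 genes was 0.16. The peptidase name TPPII (LOC4330237) had a swap mean of −0.11, the desaturase name SSI2 (LOC4327738), on the brightest spot of all members, had −0.32 and 0.18, and ISAP1 (LOC4347423) had −0.23 and 0.30.

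**Figure D3:**
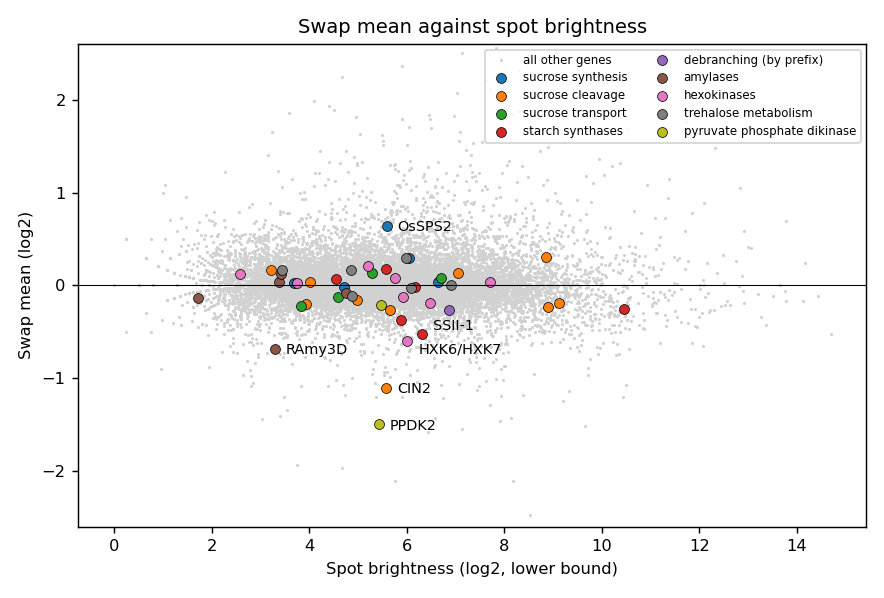
Swap mean (y axis, log2) against spot brightness (x axis, log2 lower bound) for the members, coloured by role, and all other genes (grey), of which 8 lie outside the drawn range; 5 names mark members with a swap mean below −0.5 and 1 the member above 0.5. PPDK2 at −1.50 and CIN2 at −1.10 stand below the cloud at middling brightness, and the amylases gather at the dim end.

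Of the members, 24 of 47 lay at or above the median brightness of all genes, 12 in the dimmest and 9 in the brightest of 4 groups. In the 12 dimmest members, SUT5 and 4 amylases among them, both deposited ratios were below 1 in all 12. The same held for 87.9% of all genes in the dimmest group. At or above the median brightness, 13 of 24 members (54.2%) had a swap mean below 0.25 in size, against 76.4% of such genes, a description with no test. The larger ones included SSI2, ISAP1 and OsSPS2, at −0.253, −0.265 and 0.639, whose names belong or may belong to other proteins. Among those 24 members none was on the array 2 side, against 0.228% of such genes; PPDK2 lay just below the median.

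**Figure D4:**
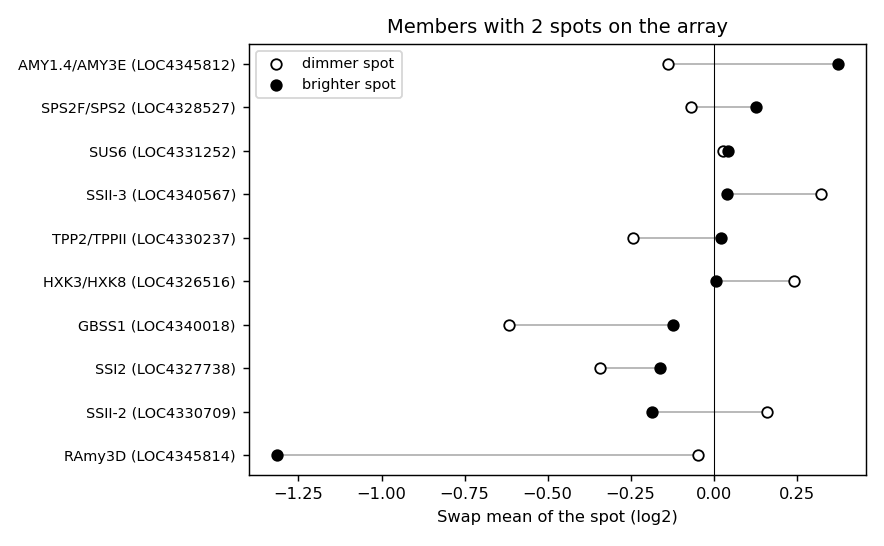
Swap mean (x axis, log2) of the dimmer spot (open circles) and the brighter spot (filled circles) for the 10 members with 2 spots. The spots of RAmy3D lie 1.27 apart, the widest gap, and those of SUS6 0.015, the narrowest.

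Where 2 spots measured 1 member, they often differed by more than the values they measured. In 6 of the 10 genes the swap means of both spots had the same sign. Their median difference was 0.27 in size, beside a median size of 0.16 for the swap mean of the 47 members. PPDK2, CIN2, SSII-1 and LOC4338010 (HXK6, HXK7) each rest on 1 spot, so no such check exists for them.

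Other genes of carbon metabolism were searched for by name, from lists of transporters, C4-type, starch breakdown and hexose enzymes and sugar signalling genes. The search gave 29 genes after 12 names of other or unsettled proteins were set apart. No starch phosphorylase was among the 29, and of the C4-type list only 2 malic enzymes were. None of the 29 was on either side, and 3 of them were 2-fold or more below 1 on each array, where 3.85% of all genes were. Of these 3, the transporters SWEET1B and SWEET5 lay in the dimmest of 4 brightness groups, at 3.47 and 3.32, and SPP1 (LOC4325448), at 4.41, lay just above its limit of 4.28. The malic enzymes NADP-ME (LOC4326769) and NADP-ME2 (LOC4324717), which in C4 leaves release the fixed carbon and in rice serve other roles, had swap means of 0.01 and 0.06. Of the 15 sugar transporters, 12 had a swap mean below 0.25 in size, and the median was 0.05. Of the 15, 9 lay above the median swap mean of all genes and 6 below. The largest were SWEET2A (LOC4326868), with 0.20 and −0.80, and SWEET2B (LOC4326923), with 0.28 and −0.60. The fructokinase FKI (LOC4324962), which phosphorylates the fructose released by sucrose cleavage, had −0.98 and 0.11, a swap mean of −0.54, while FKII (LOC4344497), on a bright spot, had 0.08 and −0.11. The kinase SnRK1A (LOC4339410), a regulator of amylase genes under sugar starvation, had 0.03 and −0.66, and MYBS1 (LOC4323963), a MYB factor of that response, had −0.14 and 0.09. On the same list, SnRK1B (LOC4345873) had −0.08 and −0.19, and MYBS3 (LOC4349385) had −0.35 and −0.08.

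Markers of tissue were read from brightness only, which cannot be compared between spots as a level. All 5 genes of the green shoot list, antenna proteins and Rubisco activase, were in the brightest of 4 groups. Of 11 root genes 2 were in the brightest group and 6 in the dimmest, with the silicon channel Lsi1 at 8.98. Of 6 seed storage genes none was in the brightest group and 4 were in the dimmest. Their swap means ran from −0.52 to 0.69 for the shoot list, from −0.21 to 0.50 for the root list and from −0.19 to 0.47 for the seed list. Their part in the members' values was not tested, and fewer cells of a type and less RNA per cell cannot be told apart in such samples.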

How the data were processed

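Total RNA of seedlings was labelled and hybridised to 2 two-colour oligonucleotide arrays with dyes exchanged. The deposited values are 1 log10 ratio per feature and array. Per the labels, GenePix 4000 read the spots and GeneSpring version 4 normalized them. For background correction, filters and numerator the sources used here give nothing. Values were multiplied to log2. Their depth is unknown, and 1 replicate limits the precision. Names came from GEO's platform annotation and RefSeq's table of assembly ASM3414082v1, through an inferred spot layout (215 by 105, with axes exchanged and both reversed) that no source states. All 17839 features with 1 gene matched a gene number; 21 with several genes were not used. Spots of a gene were averaged on each array. Whole-number ratios are the simplest fractions within 6e-10 (log10). No test was possible with 1 replicate, so shares of all genes past the same fold stand beside the members' counts. By rule, values are given on each array for members past 2-fold, the 12 with the largest swap mean at or above median brightness, and the brightest, dimmest and largest of each role. Some members outside this rule are given in the same way beside them. The annotation holds no product names, so the 5 names of other proteins were set apart by synonym. Members and lists were chosen with earlier results of these data known. The recovery of fractions and sides was tested on simulated data (Python 3.11.15, pandas 2.3.3).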

Additional observations from a re-analysis of the deposited data

How the results depend on the processing

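The counts are small and depend on how the arrays are treated. On the array 2 side, 1 member (PPDK2) became 2 (PPDK2 and CIN2) when each array was centred on its median, centred within 20 brightness groups or scaled, and also 2 at 1.5-fold or by the mean over the arrays alone; it became 6 with array 1 alone and 0 at 3-fold or with names by spot number. On the array 1 side, 0 became 4 with array 2 alone. A count from 1 array alone cannot see opposite senses, so it does not separate a side from values low or high on both arrays. With array 1 alone, the same 6 members count on the array 2 side and as lower on both. The 3 members at least 2-fold lower on both arrays became 0 under every centring or scaling, without the dimmest of 4 groups and at 3-fold, and 6 for single spots, at 1.5-fold or with array 1 alone; centring removes the shared offset by construction. The 0 members higher on both became 1 with array 2 alone, PPDK2, whose log2 ratio on array 1 was −1.79. The median plain mean of −0.289 became 0.0196 centred, −0.0521 centred within brightness groups and 0.00477 scaled. The median swap mean of −0.01 was −0.37 with array 1 alone and 0.25 with array 2 alone and turned. These single-array values include the offset of each array, with medians of −0.30 and −0.32, and so do the single-array sign changes below. With each array centred the median swap mean was −0.02, and without the 5 names of other proteins it was 0.01. Its sign is therefore not settled. Of the 29 members named by rule, the swap mean changed sign in 0 with centring, 2 with scaling, 2 with centring within brightness groups, 11 with array 1 alone and 7 with array 2 alone; PPDK2 and CIN2 were not among them. Reading the brightest spot of a gene, chosen after seeing the data, turned no sign among these 29, though it took TPPII (LOC4330237), outside that rule, from −0.11 to 0.02, and left 1 member on the array 2 side. Members by main symbol gave no value, since RefSeq gives all of them a locus number as symbol. No paired analysis was possible because both columns come from the same pair of RNA samples.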

Other observations

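Ranked by swap mean among all 15798 genes, the members reached further at the low end than at the high end. PPDK2 lay at percentile 0.057, CIN2 at 0.18, RAmy3D at 0.84, LOC4338010 (HXK6, HXK7) at 1.21 and SSII-1 at 1.70, whereas the highest member, OsSPS2, lay at 97.7 and the next, CIN7, at 90.0. These ranks are a description of 1 replicate, and RAmy3D is in it through 1 of its 2 spots.

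RAmy3D and RAmy3E are next to each other in gene order. The brighter spots of the pair had swap means of −1.32 and 0.38, and the dimmer spots −0.05 and −0.14. All 4 spots were below the median brightness of all genes.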
